A study of Mus musculus with 4 samples.

Results

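The cells described here are the pit-negative MucinDuctal cells of the mouse pancreas during caerulein injury. They carry the authors' deposited cell type name MucinDuctal and were chosen by having 0 UMIs (unique molecular identifiers, each standing for 1 captured transcript) of Muc5ac and fewer than 3 UMIs summed over Tff1, Gkn1 and Gkn2. These 4 genes mark the pit cells that line the stomach surface. Of 3983 MucinDuctal cells, 3467 (87.0%) met the rule, which is 25.9% of the 13362 cells with a deposited type and part of 21140 cells in all. The mice gave 350 and 1054 such cells at 2 weeks and 914 and 1149 at 4 weeks. The other 516 MucinDuctal cells (21 and 334 at 2 weeks, 47 and 114 at 4 weeks) are called pit-positive below.

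The study used single-cell RNA sequencing (10x Genomics) of pancreas cells sorted for EYFP, from 4 mice with the genotype Ptf1aCre-ERTM;ROSAYFP/+ on a CD-1 background. In these mice tamoxifen switches on the fluorescent protein EYFP in cells that express Ptf1a, which in the adult pancreas are acinar cells, the producers of digestive enzymes. All 4 mice had received tamoxifen at 5 mg per day on 5 days a week for 2 weeks, and were 10 weeks old at injury. Caerulein, a peptide that overstimulates acinar cells and causes pancreatitis, was injected 2 times a day on 5 days a week for 2 weeks (2 mice) or 4 weeks (2 mice), with 2 days of recovery. No uninjured mouse was analysed here, so the time points are compared with each other and not with normal pancreas.

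As background, gastric glands hold several mucus and enzyme cells. Pit cells make the mucin Muc5ac with Tff1, mucous neck cells deeper in the gland make the mucin Muc6 with the trefoil peptide Tff2, and chief cells at the base secrete pepsinogens. When the stomach is injured, chief and neck features can appear in the same cells, a state called spasmolytic polypeptide-expressing metaplasia. In the pancreas, acinar cells under injury can take on duct features such as Krt19, a keratin of simple ducts, and Sox9, a transcription factor of duct and progenitor cells, a change known as acinar-to-ductal metaplasia.

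The rule was decided mostly by Tff1. A UMI of Tff1 was found in 1054 MucinDuctal cells, of Gkn1 in 160, of Gkn2 in 20 and of Muc5ac in 9. Of the pit-negative cells, 555 still held a UMI of Tff1, 86 of Gkn1 and 4 of Gkn2. Just inside the threshold, the 190 cells with 2 UMIs over Tff1, Gkn1 and Gkn2 had a median of 23735.5 UMIs per cell and, summed, 3291 CPM (counts per 1000000 UMIs of the same cells) of Muc6, 33236 of Tff2, 974 of Krt19 and 556 of Sox9. Just outside, the 97 cells with 3 UMIs had a median of 20736 UMIs per cell and 3278 CPM of Muc6, 29224 of Tff2, 983 of Krt19 and 619 of Sox9. The threshold therefore ran through cells with similar marker levels. Median UMIs per cell were 18777, 20518.5, 14952.5 and 15027 in the pit-negative cells of the 4 mice and higher in the pit-positive cells of each mouse, at 26461, 29919.5, 23674 and 20416, and a deeper cell is more likely to reach 3 UMIs. Here and below, 4 values stand in the order 2-week mouse 1, 2-week mouse 2, 4-week mouse 1 and 4-week mouse 2.

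The pit-negative cells held 7949740, 24951865, 16518895 and 20239037 UMIs in all, and each had at least 1 UMI of EYFP. A cell barcode was found in more than 1 library 67 times, and 17 pit-negative cells carried such a barcode. The libraries differ in the sex-linked genes: Xist was at 992, 1300, 913 and 0.593 CPM, and the Y-linked gene Eif2s3y at 0, 0, 0 and 60.6 CPM. 4-week mouse 2 thus stood apart from the other 3 mice in these genes, and the sex of the mice is not given in the labels. Marker lists of other cells summed in the pit-negative cells to 1.76 to 27.9 CPM over 7 B cell genes, 3.21 to 8.30 CPM over 7 T and NK cell genes, 12.7 to 30.9 CPM over 9 myeloid genes, 33.8 to 206 CPM over 11 stromal genes, 51.4 to 172 CPM over 16 tuft genes and 108 to 415 CPM over 25 endocrine genes, the last highest in 2-week mouse 1. Of these lists, Nkg7 alone was at 0 in all 4 mice. Msln, which the stromal list holds as a mesothelial gene, made up much of the stromal sum, at 35.5, 167, 26.1 and 79.9 CPM. Acinar enzymes summed to 13224 to 31073 CPM in the pit-negative cells, 491825 to 582517 CPM in Acinar cells and 35075 to 247754 CPM in 572 untyped B cell-like cells, a lineage that does not make them. The part of free RNA in the enzyme level of the pit-negative cells was not tested.

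The pit-negative cells carried the neck mucus genes and the duct genes together. Muc6, the gel-forming mucin of gland mucous cells, was at 4887, 1815, 6506 and 4066 CPM. Tff2, the trefoil peptide secreted with it, was at 35135, 8562, 48824 and 32795 CPM. Both were lowest in 2-week mouse 2 and highest in 4-week mouse 1.

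Krt19 ran the other way among the mice, at 249, 1210.5, 244 and 544 CPM, with 2-week mouse 2 the highest. Sox9 varied least of the 4 markers, at 793, 523, 654 and 600.1 CPM. In Acinar cells of the same mice Muc6 was at 28.1, 101, 59.4 and 66.2, Tff2 at 1943, 2311, 2113 and 1554, Krt19 at 29.8, 88.4, 21.3 and 58.0 and Sox9 at 36.9, 101, 31.0 and 32.8 CPM, so that every mouse had more of each in its pit-negative cells. In the pit-negative cells of deposited cluster 1, described below, Tff2 was at 2770, 2307, 3438 and 4550 CPM. In 2-week mouse 2 it was thus not above the Acinar level there. Fewer transcripts per cell and fewer cells with the transcript cannot be told apart in such sums, so shares of cells are given next.

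**Figure D1:**
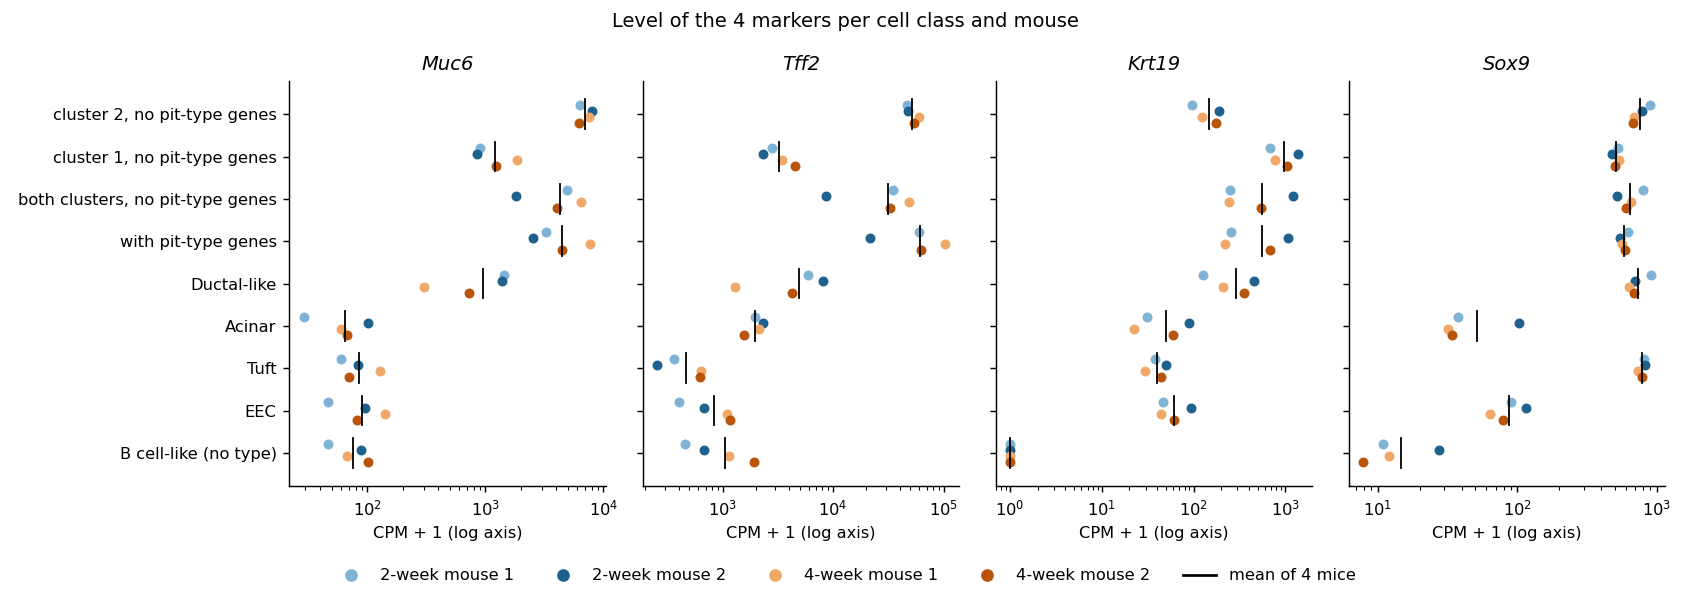
Level of Muc6, Tff2, Krt19 and Sox9 in CPM + 1 (log axis) in each cell class, with 1 point per mouse and a black line at the mean of 4 mice. The pit-negative and pit-positive MucinDuctal cells overlap for all 4 genes. Acinar, Tuft and EEC cells lie lower for Muc6 and Tff2 than the pit-negative cells of both clusters together. Tff2 of cluster 1 alone reaches the Acinar range.

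With every cell thinned to 2000 UMIs, which left out 3 and 10 shallower pit-negative cells in 2-week mouse 2 and 4-week mouse 1, a UMI of Muc6 was found in 60.6% to 95.1% of pit-negative cells, against 8.37% to 18.2% of Acinar and 6.50% to 18.8% of B cell-like cells. As deposited, without thinning, the Muc6 share was 88.3% to 98.8%. Sox9 was found in 59.3% to 72.0% of thinned pit-negative cells and 0% to 6.98% of B cell-like cells, whose median depth was only 2906.5 to 3669.5 UMIs. Krt19 was found in 27.4% to 71.3% of pit-negative and 3.44% to 16.3% of Acinar cells. A Tff2 UMI did not separate the classes, since it was also found in 87.2% to 95.2% of Acinar and 50.4% to 84.8% of B cell-like cells, and is read here by its level. All 4 markers were found together in 10.9%, 18.1%, 16.4% and 22.9% of thinned pit-negative cells. The same share was 4.76%, 25.1%, 14.9% and 19.3% of pit-positive and 7.89%, 19.6%, 15.0% and 18.2% of Ductal-like cells, so that these ranges overlap. Muc6 with Tff2 was found in 76.9%, 52.0%, 86.2% and 82.8% of pit-negative cells, lowest in 2-week mouse 2.

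The authors' clustering had split the pit-negative cells between deposited clusters 1 and 2, which differ in Krt19 and Muc6. Cluster 1 held 30.6%, 86.1%, 24.5% and 44.0% of them (107, 907, 224 and 506 cells), and cluster 2 the other 243, 147, 690 and 643. The share in cluster 1 was 58.3% ± 39.2 (SD, n = 2 mice) at 2 weeks and 34.3% ± 13.8 (SD, n = 2) at 4 weeks, a difference within the spread of the 2-week mice (two-sided exact permutation test, p = 0.667, where the smallest p possible with 2 against 2 mice is 0.333). 2-week mouse 2 was the only mouse with most of its pit-negative cells in cluster 1. The same mouse had the highest share among pit-positive cells, of which cluster 1 held 28.6%, 69.2%, 8.51% and 39.5%. Depth was alike in the clusters, with a median of 12397 to 20529 UMIs per cell in cluster 1 and 15023 to 20306 in cluster 2.

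Cluster 2 was the mucous neck and chief end of the pit-negative cells. There Muc6 was at 6330.5, 7945, 7586 and 6190.3 CPM against 905, 844, 1839 and 1239 in cluster 1, and Tff2 at 46865, 48034, 59323 and 54021 against 2770, 2307, 3438 and 4549.6. Gkn3, a gastrokine made by gland mucous cells, was at 71322, 66733, 75318 and 76949 CPM in cluster 2 and 18142, 8922, 23508 and 21776 in cluster 1. In none of these genes did the 4 mice of the clusters overlap. Since the clusters may have been made from these same counts, the differences are given with no test.

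A4gnt, the enzyme that caps the sugar chains of gland mucin with N-acetylglucosamine, differed most, at 265, 189.8, 229 and 227 CPM in cluster 2 and 15.6, 3.53, 5.80 and 8.52 in cluster 1, a mean log2 ratio (of CPM + 1, within each mouse) of 4.76 ± 0.61 (SD, n = 4). Pgc, the precursor of the stomach protease gastricsin, was at 75719.6, 5964, 79675 and 50209 CPM in cluster 2 and 7647, 265, 8346 and 2946 in cluster 1. 2-week mouse 2 was far lower than the others in both clusters, so that its cluster 2 lay below the cluster 1 of 2-week mouse 1 and 4-week mouse 1. Within each mouse cluster 2 was higher, with a log2 ratio of 3.78 ± 0.60 (SD, n = 4).

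Pga5, a pepsinogen, and Cblif, gastric intrinsic factor, followed with log2 ratios of 2.87 ± 0.63 and 4.14 ± 1.10. Agr2, which helps mucins fold, was at 4807, 13374, 7343 and 8045 CPM in cluster 2 and 819, 1354, 1644 and 2211 in cluster 1. Gcnt3, a branching enzyme of mucin sugar chains, had a log2 ratio of 2.49 ± 0.22, Creb3l1, a membrane-bound transcription factor of secretory cells, 1.41 ± 0.36, and its relative Creb3l4 1.44 ± 0.37 (each SD, n = 4). These are genes of secretion, and each was higher in cluster 2 in all 4 mice.

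Cluster 1 was the duct and injury end. Krt19 was at 672, 1372, 764 and 1036 CPM there and 95.6, 189, 124 and 174 in cluster 2. Krt7, another duct keratin, was at 157, 268, 124 and 169 against 18.5, 50.1, 29.3 and 28.2 CPM, and S100a6, a calcium-binding protein raised in many injured epithelia, at 1348, 1969, 1252 and 1261 against 59.3, 186, 105 and 115 CPM. The mice of the clusters did not overlap in any of these 3 genes. The stromal list, of which Msln alone reached 50 CPM in a cluster, was higher in cluster 1 as well, at 149, 233, 107 and 188 against 52.1, 37.2, 16.9 and 38.2 CPM, and its part in these differences was not tested. Sox9 did not follow the keratins. It was at 889, 788, 681 and 675 CPM in cluster 2 and 529, 480.4, 537 and 500.1 in cluster 1, a log2 ratio of 0.56 ± 0.20 (SD, n = 4), so that this duct factor was somewhat higher in the cluster with lower Krt19 in each mouse.

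Chymosin, a milk-clotting stomach protease encoded by Cym, was the exception among the chief genes. Cym was at 2711, 3985, 1917 and 3216 CPM in cluster 1 and 223, 602, 186 and 154 in cluster 2, a log2 ratio of -3.52 ± 0.68 (SD, n = 4). It was thus highest where Pgc, Pga5 and Cblif were lowest, and 2-week mouse 2 was the highest mouse in both clusters.

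The upstream sequences of 4 genes that differed between the clusters in summed level are shown. They were chosen because in these sums Pgc and Cym, 2 enzyme-precursor genes of the same chief list, went to opposite clusters. Muc6 and its capping enzyme A4gnt went together. Each run is the 250 bases before the RefSeq start site, from RefSeq with build GRCm38.p6, 5′ to 3′ on the gene's strand. The 4 lie at chr7:141655394-141655643 (- strand) for Muc6, chr9:99612252-99612501 (+ strand) for A4gnt, chr17:47726592-47726841 (+ strand) for Pgc and chr3:107221733-107221982 (- strand) for Cym, in no annotated exon. Capitals mark matches to searched motifs.
Muc6: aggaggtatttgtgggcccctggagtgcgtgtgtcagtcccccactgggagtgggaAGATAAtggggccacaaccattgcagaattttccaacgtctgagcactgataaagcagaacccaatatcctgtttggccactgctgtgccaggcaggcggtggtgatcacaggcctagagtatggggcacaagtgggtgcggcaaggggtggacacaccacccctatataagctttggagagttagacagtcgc
A4gnt: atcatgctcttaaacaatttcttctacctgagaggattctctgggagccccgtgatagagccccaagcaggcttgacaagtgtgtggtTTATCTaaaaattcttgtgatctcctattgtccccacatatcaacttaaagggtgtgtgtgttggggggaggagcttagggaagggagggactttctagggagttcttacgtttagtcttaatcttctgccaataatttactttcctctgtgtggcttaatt
Pgc: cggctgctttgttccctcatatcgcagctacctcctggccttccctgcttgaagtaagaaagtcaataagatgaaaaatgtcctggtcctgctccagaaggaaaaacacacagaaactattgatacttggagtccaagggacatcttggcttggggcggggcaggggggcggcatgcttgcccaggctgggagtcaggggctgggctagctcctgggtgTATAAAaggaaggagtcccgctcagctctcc
Cym: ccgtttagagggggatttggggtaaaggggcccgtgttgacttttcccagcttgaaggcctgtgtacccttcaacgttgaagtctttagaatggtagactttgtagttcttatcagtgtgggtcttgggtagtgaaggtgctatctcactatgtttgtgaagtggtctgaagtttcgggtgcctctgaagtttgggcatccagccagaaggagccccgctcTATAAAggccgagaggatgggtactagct
Both strands were searched for a GATA-type motif (AGATAA, reverse TTATCT), a forkhead-type motif (GTAAACA, reverse TGTTTAC) and a TATA-type motif (TATAAA, reverse TTTATA), chosen after the expression values were known. Muc6 has AGATAA beginning 194 bases before its start and A4gnt has TTATCT beginning 162 bases before. Of 32851 promoters of the same length, 9.99% hold a match anywhere on either strand. Pgc and Cym have TATAAA beginning 31 and 29 bases before their starts. Anywhere in the 250 bases, on either strand, 12.4% of promoters hold a match, and the share at that position was not counted. None of the 4 holds the forkhead-type motif, which 3.17% of promoters hold. Pgc and Cym, which went to opposite clusters, thus share the letters found here. Only the exact letters given were searched, so other spellings of these motif types, such as tatataa in the Muc6 run, are not marked. A match of letters is a description and not a measured binding site.

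**Figure D2:**
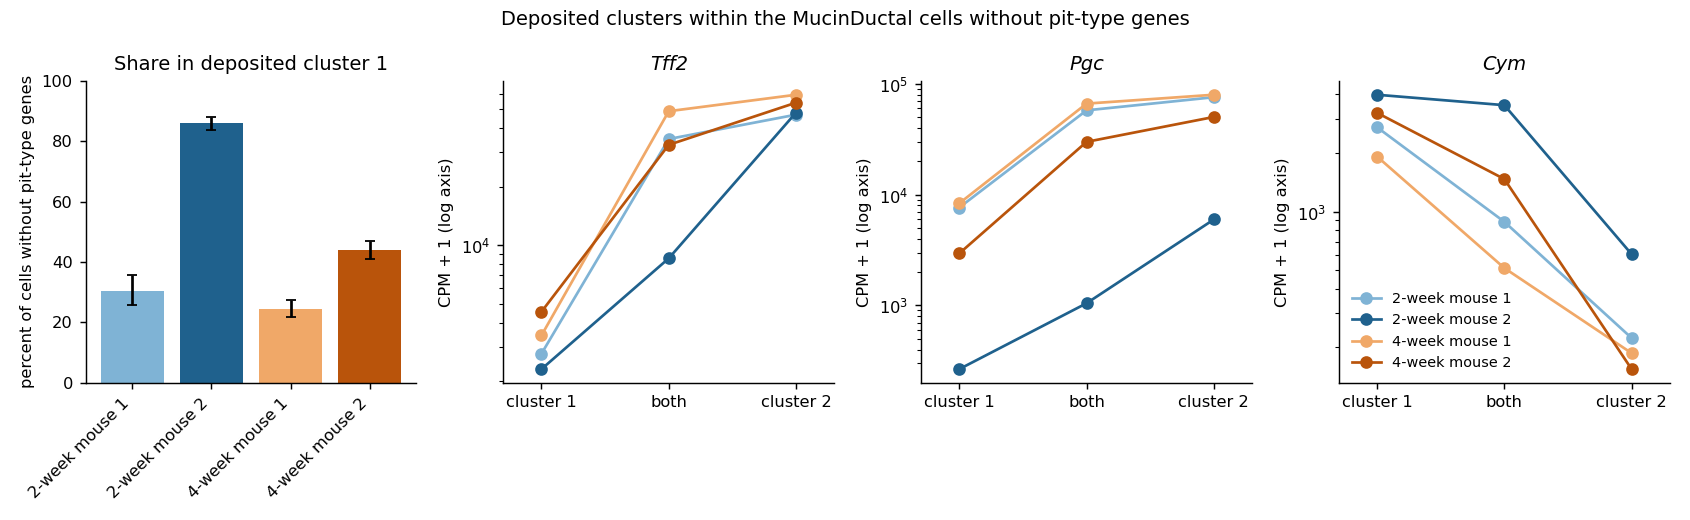
Share of pit-negative cells in deposited cluster 1 per mouse in percent (bars with 95% exact binomial intervals), and levels of single genes in cluster 1, in both clusters together and in cluster 2, in CPM + 1 (log axis), with 1 line per mouse. The share runs from 24.5% to 86.1%, and the lines of each gene slope the same way in all 4 mice.

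Over all 2780 genes with a mean of at least 50 CPM in 1 of the clusters, 47 (1.69%) had a log2 ratio of at least 1 in favour of cluster 2 in 4 of 4 mice, and 92 (3.31%) in favour of cluster 1. Listed genes below that level in both clusters are not counted here. Of the 13 listed neck genes 9 reached it, with 3 higher in cluster 2 (Muc6, Tff2, Gkn3) and Dmbt1, a secreted mucin-binding glycoprotein, higher in cluster 1. Pgc, Pga5 and Cblif were higher in cluster 2 among the 4 of 6 chief genes that reached it, and Cym in cluster 1. Of 33 mucin-making genes 14 reached it, with 4 higher in cluster 2 (Agr2, Tmed3, Gcnt3, A4gnt) and the sialyltransferase St3gal4 higher in cluster 1. The median log2 ratio was 0.81 over the neck genes, 3.33 over the chief genes and 1.02 over the mucin-making genes, beside -0.15 over all genes.

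On the side of cluster 1 stood 6 of the 7 injury genes that reached 50 CPM (Mmp7, Anxa1, Anxa2, Anxa3, S100a6, S100a11), 4 of 14 duct genes (Krt19, Krt7, Krt8, Ambp), 2 of 4 Reg genes (Reg1, Reg3b) and 5 of 10 interferon and antigen presentation genes (Irf7, Isg15, Bst2, Cd74, Psmb8). None of these 4 lists had a gene higher in cluster 2 by a log2 ratio of at least 1 in all 4 mice. Genes of B cells, which express Cd74 as well, summed to 2.84 to 31.0 CPM in cluster 1 and 1.37 to 8.79 in cluster 2, and their part in the Cd74 level was not tested. Medians were -2.30 over the injury genes, -0.64 over the duct genes and -1.29 over the interferon genes. Mmp7, a matrix protease of secretory and injured epithelium, was at 216, 209, 256 and 54.2 CPM in cluster 1 and 37.0, 24.0, 30.0 and 6.40 in cluster 2. Reg1, a secreted lectin-like protein of injured pancreas, was at 22014, 11392, 13292 and 8734 and 4761, 4141, 4453 and 3842 CPM. Reg1 and Reg3b were higher still in Acinar cells, as given below, and the part of free RNA in their levels was not tested. The genes with the largest ratios for cluster 1 were Serpinb6b, a protease inhibitor (-3.89 ± 0.61), 2210407C18Rik (-3.80 ± 0.59), S100a6 (-3.72 ± 0.51), Cym and Igfbp7 (-3.46 ± 0.51, SD, n = 4). For cluster 2 they were A4gnt, Cblif, Tff2, Pgc and Cgref1 (3.65 ± 0.77).

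**Figure D3:**
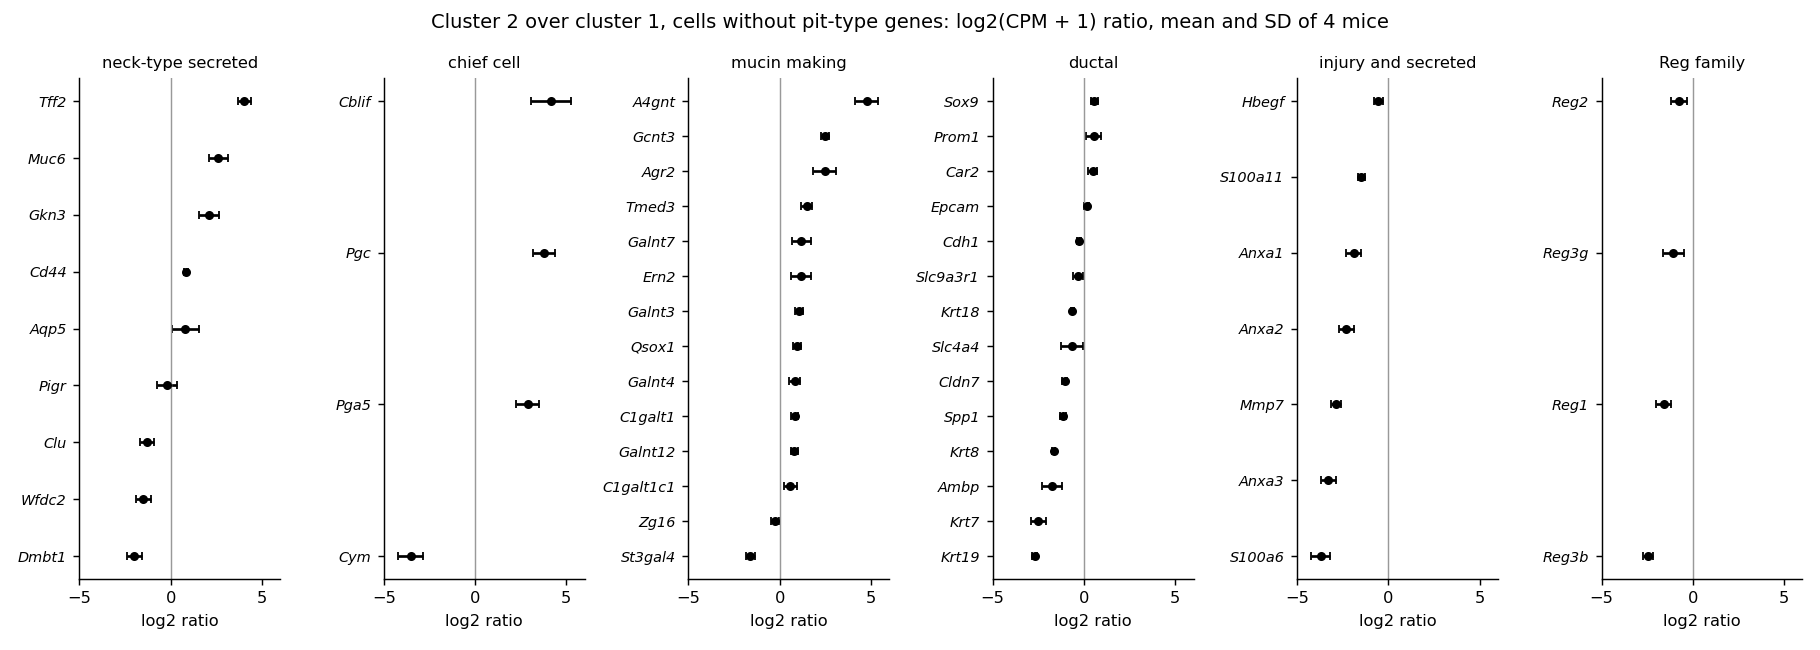
Log2 ratio of CPM + 1 in deposited cluster 2 over cluster 1, within pit-negative cells, as the mean and SD of 4 mice for the genes of the neck, chief, mucin-making, duct, injury and Reg lists that reached 50 CPM in a cluster. Muc6, Tff2, Gkn3 and Pgc lie right of 0, and Krt19, S100a6 and Cym left of it.

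Single cells of the pit-negative class paired some of the same genes. In the cells that could be thinned to 5000 UMIs (348, 1037, 858 and 1126), Spearman's rho between Tff2 and Muc6 was 0.42 to 0.66 over the 4 mice, between Tff2 and Gkn3 0.44 to 0.55, and between Krt19 and S100a6 0.49 to 0.65. Tff2 and Krt19 ran opposite, at -0.38 to -0.27, and Tff2 and Sox9 were nearly unrelated, at 0.039 to 0.0812. Cym was only weakly related to these genes, at 0.091 to 0.26 with Krt19 and -0.19 to -0.040 with Tff2. Between Cym and Pgc rho was -0.28 to 0.0040, so their split between the clusters was hardly seen over single cells. Cells of a mouse share their library, so these are descriptions over cells.

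Against Acinar cells, from which EYFP marking starts, the pit-negative cells had most measured neck, duct and chief genes higher and the acinar enzymes lower. Of 2531 genes with at least 50 CPM in either class, 1488 (58.8%) were higher in pit-negative cells by a log2 ratio of at least 1 in all 4 mice, and 70 (2.77%) were higher in Acinar cells. The median over all these genes was 1.48, beside acinar enzymes that take up 491825 to 582517 CPM in Acinar cells, and list values are to be read against that median. Medians were 4.75 over the 9 neck genes that reached 50 CPM, of which 8 were higher, and 3.36 over 13 duct genes, of which 12 were higher. Over 17 transcription factors of stomach, duct and mucous cells the median was 3.37, with 15 higher. By the same rule 0 of 17 were higher and 0 lower against Ductal-like cells. Against Tuft cells 3 of 18 were higher and 2 lower, and against EEC cells 10 of 18 and 2. Shares over all genes are given with those classes below. The list summed to 2421, 3374, 2464 and 2502 CPM in pit-negative cells. It summed to 2527, 3069, 2407 and 2446 in Tuft and 2236, 3451, 2268 and 2467 in EEC cells, so these ranges overlap.

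Several of these factors were far lower in Acinar cells. Foxq1, a forkhead factor required for gastric mucin in pit cells, was at 150.4, 182, 138 and 139 CPM in pit-negative and 1.22, 6.34, 1.61 and 1.51 in Acinar cells. Gata5, a factor of endodermal epithelium, was at 73.1, 60.0, 92.0 and 76.6 against 0.698, 2.65, 0.881 and 0.953 CPM, and Spdef, an ETS factor of mucous secretory cells, at 110.4, 66.6, 109 and 108 against 12.0, 15.4, 9.34 and 8.75 CPM. None of these overlapped, and 2-week mouse 2 was the lowest pit-negative mouse in Gata5 and Spdef and the highest in Foxq1. Hes1, a target of Notch signalling, was at 169, 177, 155 and 155 CPM, against 12.6, 24.8, 6.17 and 10.7 in Acinar, 4.68, 9.19, 9.02 and 6.14 in Tuft and 6.91, 9.28, 6.58 and 5.32 in EEC cells. Sox2, a factor of foregut progenitors, was at 0 in all 4 mice, where a count of 0 allows up to 0.377, 0.12, 0.182 and 0.148 CPM (3 UMIs of the total, counting error only). Cdx2, a factor of intestine, was at 0.377, 0, 0 and 0 CPM.

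The largest single ratios to Acinar cells were those of Pgc (7.12 ± 1.33), the whey-acidic-protein gene Wfdc18 (6.73 ± 1.00), Car2, a carbonic anhydrase of bicarbonate-secreting ducts (6.55 ± 1.16), Kcne3, a potassium channel subunit (6.46 ± 0.92), Gkn3 (6.30 ± 1.50), Spp1, which encodes osteopontin (6.13 ± 1.13), Muc6 (6.06 ± 1.40) and Golm1, a Golgi protein (5.99 ± 1.05, log2, SD, n = 4). Car2 was at 933, 611, 1059 and 1022 CPM in pit-negative and 4.33, 19.6, 5.97 and 9.56 in Acinar cells. All 28 acinar enzymes that reached 50 CPM were lower, with a median of -6.06. Of 6 Reg genes that reached it, 5 (Reg1, Reg2, Reg3a, Reg3b, Reg3d) were higher in Acinar cells, with a median of -4.37. In pit-negative or pit-positive cells 22 enzymes and 4 Reg genes reached 50 CPM. The others reached it through Acinar cells, so the direction of their mean followed from the rule. The part of free RNA in the Reg levels was not tested. Cpa1, a carboxypeptidase, was at 389, 189.9, 172 and 238 against 18165, 20837, 21511 and 20659 CPM. The acinar transcription factor Ptf1a was at 3.02, 1.76, 0.908 and 1.14 against 64.5, 62.2, 38.5 and 65.1 CPM, and Bhlha15, which shapes the secretory apparatus of both acinar and chief cells, at 40.3, 17.4, 24.6 and 32.1 against 76.8, 84.1, 96.5 and 58.9. Of the 4 acinar factors that reached 50 CPM, Ptf1a and Rbpjl were higher in Acinar cells by a log2 ratio of at least 1 in all mice, and Bhlha15 was not.

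Of the 4 other classes, the Ductal-like cells had the fewest genes that differed in all 4 mice. There were only 38, 56, 23 and 22 such cells, so that their levels carry more counting error. Of 3211 genes, 13 (0.405%) were higher in pit-negative and 146 (4.55%) in Ductal-like cells. The neck secreted genes gave 1 of 9 (Dmbt1) and the chief genes 1 of 4 (Pgc) on the pit-negative side, and the duct genes 3 of 16, Ambp and Onecut1 among them, on the Ductal-like side. Muc6 itself was at 1441, 1377, 299 and 727 CPM and Tff2 at 5867, 8109, 1292 and 4212 CPM in Ductal-like cells, so that both classes carried them. The part of free RNA or mixed droplets in these levels was not tested.

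What set the Ductal-like cells apart were genes nearly missing from the pit-negative cells. Cldn10, a tight-junction protein, was at 2.26, 0.882, 0.666 and 1.53 CPM in pit-negative and 331, 267, 511 and 299 in Ductal-like cells. Lcn2, an iron-withholding defence protein, was at 9.43, 14.8, 1.94 and 11.1 against 874, 1369, 939 and 933 CPM, and the transcription factor Prox1 at 7.30, 4.17, 3.69 and 2.52 against 293, 195, 487 and 293 CPM. None of these overlapped. The duct transcription factor Onecut1 (16.5, 32.5, 11.3 and 7.76 against 113, 126, 164 and 120.2 CPM) was also lower, while Sox9 overlapped, at 910, 696, 631 and 682 CPM in Ductal-like cells. Higher in the pit-negative cells were Msln (3.41 ± 1.38), Lgals4, an intestinal lectin (2.77 ± 1.24), 2210407C18Rik (2.67 ± 1.01), Pgc (2.45 ± 1.39) and Anxa1 (2.24 ± 1.49, log2, SD, n = 4).

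The clusters differed from the Ductal-like cells partly in the same genes, with Cldn10, Lcn2, Ambp and Onecut1 lower in each cluster. Of 3258 genes, 81 (2.49%) were higher in cluster 2 and 264 (8.1%) in Ductal-like cells, among them 6 of 16 duct genes on the Ductal-like side, Krt7, Krt8, Spp1, Ambp and Onecut1 being 5 of them. Cluster 1 had 30 (0.939%) higher and 121 (3.79%) lower of 3196, with Krt19 higher in cluster 1 and Ambp and Onecut1 higher in Ductal-like cells. Of the neck genes, 3 of 9 (Muc6, Tff2, Gkn3) were higher in cluster 2 than in Ductal-like cells, and 1 of 9 (Dmbt1) in cluster 1. Of the chief genes, 3 of 4 (Pgc, Pga5, Cblif) were higher in cluster 2 and 1 of 4 (Cym) in cluster 1, where the median log2 ratio of the 4 was -0.54. Krt19 was at 125, 459.6, 207 and 358 CPM in the Ductal-like cells. Cluster 1, the higher of the clusters in keratins, thus still lacked the Ductal-like levels of Cldn10 (3.31, 0.929, 1.29 and 3.11 CPM).

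Tuft cells, chemosensory cells with Pou2f3 and Dclk1, and EEC cells, which make hormones, were lower than the pit-negative cells in most neck genes. Many duct and mucin-making genes differed as well, and some of these were higher in Tuft or EEC cells. Against Tuft cells 243 of 3491 genes (6.96%) were higher in pit-negative cells and 627 (18%) lower. On the higher side were 8 of 9 neck genes and 4 of 4 chief genes, with medians of 3.84 and 5.58 beside -0.45 over all genes. Of 12 mucin-making genes 6 were higher and 1 (Fut2) lower, and against EEC cells 7 of 11 were higher. All 14 tuft genes that reached 50 CPM were lower than in Tuft cells. In pit-negative or pit-positive cells 0 of 16 listed tuft genes reached 50 CPM. The 14 thus reached it through Tuft cells alone, and the direction of their mean followed from the rule. Of 13 duct genes 4 were higher (Krt19, Spp1, Car2, Slc4a4) and 3 lower (Krt8, Krt18, Cldn7), and Sox9 was at 807, 823, 729.5 and 779 CPM in Tuft cells.

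Against EEC cells 283 of 3576 genes (7.91%) were higher in pit-negative cells and 584 (16.3%) lower. All 9 neck and all 4 chief genes that reached 50 CPM were higher, and 20 of 23 endocrine genes were lower. In pit-negative or pit-positive cells only 2 of 25 listed endocrine genes reached 50 CPM. Most of the 23 thus reached it through EEC cells alone, and the direction of their mean followed from the rule. Sox9, at 89.8, 115, 63.1 and 77.5 CPM in EEC cells, was among the 6 of 14 duct genes that were higher in pit-negative cells. The largest ratios were those of Cym (6.23 ± 1.03), Pgc (6.23 ± 0.88) and Gkn3 (6.20 ± 0.78) on the pit-negative side, and of the hormone genes Ppy (-10.50 ± 0.22) and Pyy (-9.60 ± 0.75, log2, SD, n = 4) on the EEC side.

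**Figure D4:**
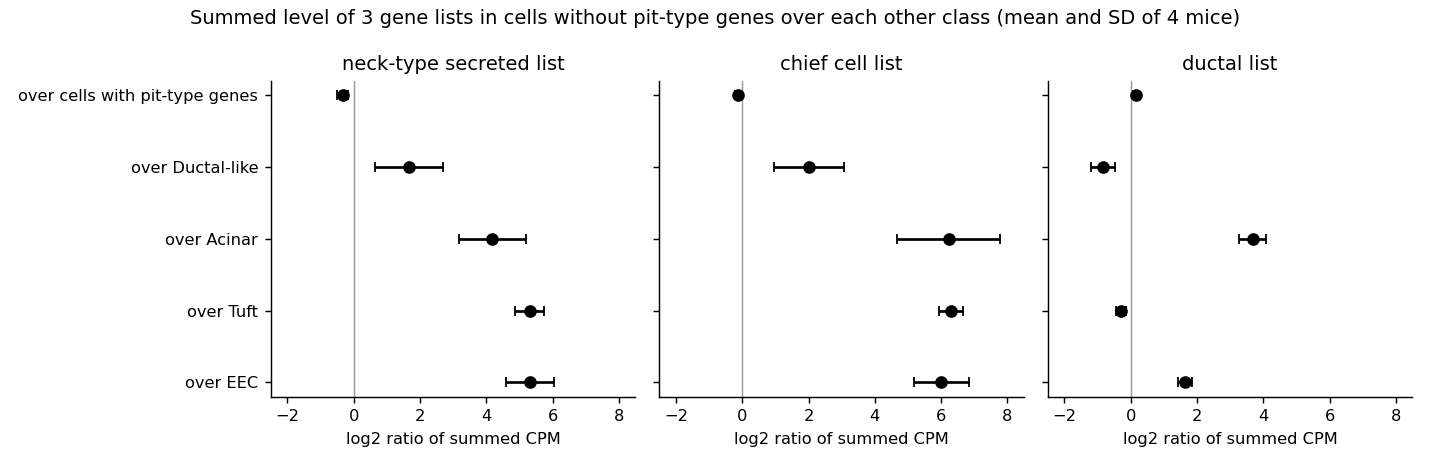
Log2 ratio of the summed CPM of the neck, duct and chief lists in pit-negative cells over pit-positive, Acinar, Ductal-like, Tuft and EEC cells, as the mean (point) and SD (bar) of 4 mice. The chief list stands 6.22 above Acinar and 2.01 above Ductal-like cells, and the duct list 0.84 below Ductal-like cells.

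Summed over a list, the neck genes were higher in pit-negative cells by a log2 ratio of 4.19 ± 1.01 against Acinar, 1.67 ± 1.01 against Ductal-like, 5.30 ± 0.45 against Tuft and 5.32 ± 0.72 against EEC cells (SD, n = 4). The chief genes gave 6.22 ± 1.55, 2.01 ± 1.05, 6.29 ± 0.36 and 6.01 ± 0.83. The chief list summed to 334 to 550 CPM in Acinar, 84.7 to 1188 in Tuft and 174 to 837 in EEC cells. In untyped B cell-like cells it summed to 182 to 846 CPM, so these ranges overlap. The neck list summed to 4417 to 7042 CPM in Acinar, 1827 to 2860 in Tuft and 1817 to 2637 in EEC cells. In B cell-like cells it summed to 1184 to 4007 CPM. The part of free RNA in these ratios was not tested. The duct genes gave 3.68 ± 0.40 against Acinar and 1.65 ± 0.21 against EEC cells, but -0.84 ± 0.36 against Ductal-like and -0.30 ± 0.15 against Tuft cells. When the acinar enzymes were left out of the library size, the ratios to Acinar cells came down to 3.09 for the neck, 5.13 for the chief and 2.59 for the duct genes. The summed level follows the most abundant genes of a list, and of the single neck and chief genes Dmbt1 and Pgc alone were higher than in Ductal-like cells by a log2 ratio of at least 1 in all 4 mice. In cluster 1 the neck sum was 50551, 31627, 53087 and 46556 CPM against 35291, 36392, 19512 and 27535 in Ductal-like cells, lower in 2-week mouse 2. The chief sum was 12588, 4481, 12646 and 7248 CPM in cluster 1 against 19547, 2879, 7539 and 9967, lower in 2-week mouse 1 and 4-week mouse 2. In cluster 2 both sums were above those of the Ductal-like cells in all 4 mice.

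The pit-negative and pit-positive cells were close to each other outside the rule. Of 2505 genes with at least 50 CPM in either, 0 (0%) were higher in pit-negative cells by a log2 ratio of at least 1 in all 4 mice, and 1 (0.0399%) was higher in pit-positive cells, Tff1, which the rule used. Tff1 was at 4.65, 15.2, 5.81 and 10.3 CPM against 829, 477, 227 and 364. Other genes of the stomach surface were not missing from the pit-negative cells. Ctse, a protease of pit cells, was at 354, 364, 361 and 302 CPM in pit-negative and 432, 427, 373 and 414 in pit-positive cells, and Vsig1, a gastric adhesion protein, at 124, 100.4, 170.1 and 157 and 142, 104, 151 and 169 CPM. All 4 pit-positive values of Ctse lay above all 4 pit-negative ones, by a log2 ratio under 1, and Vsig1 overlapped. The name of the cells therefore holds for the 4 genes of the rule, within its threshold, and not for every gene of the stomach surface. Tff2 was higher in the pit-positive cells of each mouse, at 60180.5, 21516, 102417 and 62959.7 CPM, a log2 ratio of -1.03 ± 0.23 (SD, n = 4), while Muc6 overlapped at 3292, 2556, 7693 and 4439 CPM. List ratios were -0.34 ± 0.17 for neck, -0.12 ± 0.09 for chief and 0.147 ± 0.065 for duct genes (SD, n = 4). When the rule was applied to thinned cells, these came to -0.20 ± 0.49 for neck and 0.0395 for duct genes, and the chief ratio turned to 0.0284. The median of single genes over the neck list was 0.09, opposite in sign to the sum, beside 0.07 over all genes.

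Between 2 and 4 weeks no gene of the pit-negative cells passed the test. UMIs were summed per mouse and compared with edgeR's quasi-likelihood test with Benjamini-Hochberg adjustment at 0.05 over all 13299 genes. 0 (0%) passed, 319 (2.4%) had an unadjusted p under 0.05 and were higher at 4 weeks, and 429 (3.23%) were lower. DESeq2 called 47. Leaving out 2-week mouse 1 gave 249 genes with edgeR and leaving out 2-week mouse 2 gave 36, while leaving out either 4-week mouse, of which mouse 2 stands apart in the sex-linked genes, gave 0. The share of MucinDuctal cells that were pit-negative was 94.3%, 75.9%, 95.1% and 91.0%, and their share of typed cells 11.7%, 29.4%, 32.5% and 28.9% (two-sided exact permutation test, p = 0.667 for each). The difference in the first share turned from 7.90 percentage points higher at 4 weeks to -1.30 without 2-week mouse 2. With the rule applied to thinned cells it was 2.81 points, and 2-week mouse 2 went from 75.9% to 93.6%. The 4 markers had log2 changes (4 weeks over 2 weeks, ± SE) of 0.77 ± 0.60 for Muc6, 1.00 ± 0.80 for Tff2, -0.75 ± 0.82 for Krt19 and 0.05 ± 0.29 for Sox9. None passed. In Muc6, Tff2 and Krt19 2-week mouse 1 lay between the 4-week mice, and for Sox9 the 2-week mice lay to either side of both 4-week mice.

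None of the genes with the smallest p passed. Adam28, a membrane protease, was at 6.04, 5.49, 19.1 and 17.5 CPM, a log2 change of 1.80 ± 0.17 (SE, n = 2 mice per time, edgeR adjusted p = 0.768). Anxa10, an annexin of gastric epithelium, was at 69.2, 68.5, 118 and 120.1 CPM (0.91 ± 0.13, adjusted p = 0.795). Both 4-week mice lay above both 2-week mice in these, as they did in 1700066B19Rik, 4930481A15Rik and Akr1c19, and in 1273 genes in all (9.57%). Among those lower at 4 weeks by the same rule were the histone gene Hist1h4i, at 28.1, 27.4, 11.4 and 11.4 CPM (-1.16 ± 0.13, edgeR adjusted p = 0.768), the sialyltransferase St6gal1, Coq10b and Phlda3, of which Phlda3 turned to 0.31 within cluster 2. Both 4-week mice lay below both 2-week mice in 4046 genes (30.4%). These counts depend on the scaling. In CPM scaled by TMM, which was tried after seeing the data, both 4-week mice lay above in 2408 genes (18.1%) and below in 2423 (18.2%), and the genes named here kept their direction.

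Several lists had negative medians over time, the proliferation genes among them. Their log2 change was -1.74 at the median of 18 genes, beside -0.0074 over all genes, and 8 of 18 had an unadjusted p under 0.05, all lower, beside 3.23% of all genes that were lower and 2.4% that were higher at that level. No gene passed the adjusted test. Mki67, a marker of cycling cells, was at 4.40, 28.1, 1.09 and 3.31 CPM, high in 2-week mouse 2 alone, and Top2a, a DNA-untangling enzyme of dividing cells, at 2.39, 21.7, 1.51 and 4.79 CPM, also highest there. The interferon and antigen presentation genes had a median of -1.31, with 5 of 18 lower at that level, and the Reg genes one of -1.35, with 3 of 6 lower. Summed, the interferon and antigen presentation list was at 3768, 1017, 1484 and 1758 CPM, high in 2-week mouse 1 alone, and 2-week mouse 2 lay below both 4-week mice. The same order held within cluster 1 (6776, 1036, 1899 and 2051 CPM) and cluster 2 (2678, 897, 1389 and 1538 CPM). Lists of other cell types ran both ways, with medians up to 0.31 for the T and NK cell genes (3 tested) and 0.28 for the myeloid genes (7 tested). The stroma and mesothelium list, which holds Msln, had a median of -1.63 with 2 of 8 lower, and the tuft list one of -0.85 with 1 of 14 lower. The stroma list summed to 78.0, 206, 33.8 and 102 CPM in the pit-negative cells and the tuft list to 64.0, 172, 65.1 and 51.4 CPM, both highest in 2-week mouse 2, and their part in the other lists' values was not tested. The mucin-making genes had 4 of 26 higher at that level, and the gastric surface genes outside the rule 2 of 8 (Anxa10 and Vsig1). 2-week mouse 2 had 86.1% of its pit-negative cells in cluster 1, more than any other mouse, so the values within each cluster are given next.

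Within cluster 1 alone, a fit added after the data had been seen, 4 of 11760 genes (0.034%) passed edgeR's test, and at an unadjusted p under 0.05 there were 355 higher (3.02%) and 454 lower (3.86%). 4930481A15Rik rose from 1.89 and 1.90 CPM to 27.7 and 24.6 CPM, a log2 change of 3.80 ± 0.25 (SE, edgeR adjusted p = 0.00404). Reg2, a secreted Reg protein, was at 98.8, 105, 27.4 and 21.6 CPM and fell by 2.04 on the log2 scale (SE 0.16, edgeR adjusted p = 0.00827). Reg2 is among the Reg genes that were higher in Acinar cells, and the part of free RNA in its level was not tested. The replication histone genes Hist1h2ap (38.3, 50.3, 10.6 and 11.6 CPM) and Hist1h1b (7.57, 10.8, 0.322 and 0.345 CPM) fell as well (edgeR adjusted p = 0.0397 for each), Hist1h2ap by 1.96 on the log2 scale. In these 4 genes the time points did not overlap. Cluster 1 held 2114806, 21538543, 3103394 and 8683632 UMIs in all, so the 4-week values of Hist1h1b rest on few UMIs. The same holds for the 1.89 CPM of 4930481A15Rik in 2-week mouse 1. In cluster 2 edgeR called 0 of 11845 (0%), with 374 higher (3.16%) and 382 lower (3.22%) at an unadjusted p under 0.05. There the log2 changes were 2.88 for 4930481A15Rik, -1.57 for Reg2 and -0.14 for Hist1h2ap, none of which passed, and Hist1h1b was too low to be tested. The difference between the clusters in these changes was not tested. Within cluster 1 the median of the proliferation genes was -1.28, with 7 of 16 lower at an unadjusted p under 0.05 by edgeR. Within cluster 2 it was -0.26, with 3 of 12 lower. That of the Reg genes was -0.93 in cluster 1, with 2 of 6 lower at that level, and -0.92 in cluster 2, with 3 of 6. That of the interferon and antigen presentation genes was -1.50 in cluster 1, with 1 of 18 lower at an unadjusted p under 0.05, and -0.88 in cluster 2, with 2 of 17. The stroma list had -1.29 and -1.01. The mucin-making genes had a median of 0.29 in cluster 1, with 5 of 24 higher and 1 lower at that level, and of -0.06 in cluster 2, with 0 of 23. The neck genes had a median of 0.68 in cluster 1, with 5 of 12 higher and 1 lower at that level. In cluster 2 they had 0.10, with 0 of 12 higher and 1 lower, and in both clusters together 0.34, with 0 of 12. Within cluster 1 both 4-week mice lay above both 2-week mice in Muc6 and Tff2, and neither gene passed. How many of the 11760 genes did so in cluster 1 was not counted. In both clusters together 9.57% of genes did so, or 18.1% in CPM scaled by TMM. The difference between the clusters was not tested.

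**Figure D5:**
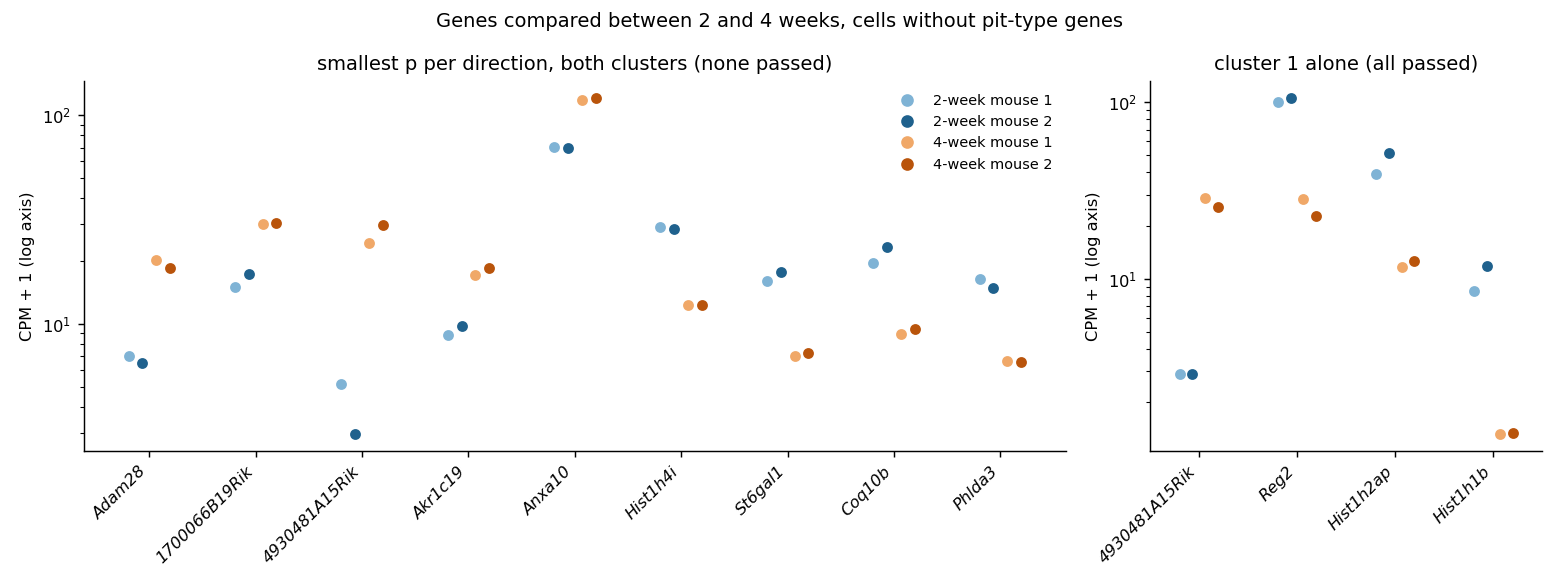
Levels in CPM + 1 (log axis) at 2 weeks and 4 weeks, with 1 point per mouse, of the named genes with the smallest p per direction in all pit-negative cells (none passed) and of the 4 genes that passed in cluster 1 alone. The time points do not overlap in any of the genes shown, which for the genes with the smallest p was a condition of choosing them.

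Whether the change over time differed between pit-negative and pit-positive cells was tested as an interaction with the mouse as a block. Of 12960 genes 32 (0.247%) passed edgeR's adjusted threshold, 24 of them with a more negative change in pit-negative cells and 8 with a more positive one. The smallest p belonged to Anxa2, an annexin of injured epithelium and a cluster 1 gene. It was at 70.6, 270.2, 45.7 and 95.3 CPM in pit-negative and 66.0, 235, 86.1 and 202 CPM in pit-positive cells, and the difference of its log2 changes was -1.22 ± 0.14 (SE, edgeR adjusted p = 1.01e-07). The classes lay close together at 2 weeks, and the pit-positive cells were the higher at 4 weeks. Among cluster 2 cells only, the difference for Anxa2 was 0.06 (edgeR adjusted p = 1), and 27 of 10960 genes (0.246%) passed there. Of the 32 genes, 22 were tested among cluster 2 cells and 2 of them, Apoc2 and Pga5, passed, so that the 27 are mostly other genes. The share of cluster 1 ran from 8.51% to 86.1% over the mice and both classes. 2-week mouse 1 had 21 pit-positive cells and 45 UMIs of Anxa2 in them. DESeq2 called 2 genes in place of 32, and the fit with no mouse block 0. Leaving out 1 mouse gave 23 to 125 calls, with 89 without 2-week mouse 1 and 125 without 2-week mouse 2. Against Acinar cells of the same mice edgeR called 0 of 13973 interactions (0%) and DESeq2 called 2. At an unadjusted p under 0.05 edgeR gave 198 more positive (1.42%) and 230 more negative (1.65%) in the pit-negative cells, and leaving out 2-week mouse 1 or 2-week mouse 2 gave 364 or 104 adjusted calls. The smallest adjusted p there was 0.163, for the trefoil gene Tff3.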

How the data were processed

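The deposited values are the authors' raw UMI counts per gene and cell for 4 mice, with no normalization, per the file headers. Cell Ranger 4.0.0, Seurat 3.2.3 and mm10 are named in the submitters' processing notes, with no role given. Cluster numbers and cell type names are the authors' deposited ones, and how they were assigned is not given in the sources used here. Counts of typed cells did not differ between the merged and the EYFP-positive tables (summed difference 0). The largest mitochondrial share of a pit-negative cell was 6.00%. No doublet caller was run.

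Members, gene lists, alternatives and tests were chosen with earlier results of these data known. Counts were summed per mouse and class (7949740 to 24951865 UMIs for pit-negative cells) with Python 3.11.15, numpy 2.4.6, scipy 1.17.1 and pandas 2.3.3. CPM are these sums scaled to the class total, and log2 ratios were taken within a mouse with a pseudocount of 1 CPM. No p was computed between classes or clusters, which may have been defined on the same counts. Time and interactions were tested with edgeR 4.0.16 (quasi-likelihood, robust, TMM, filterByExpr) under R 4.3.3, and DESeq2 1.42.0 was an alternative. On simulated counts with 200 genes changed 4-fold among 13147, the time fit recovered 190 with 6 false calls. Every simulated gene had the same dispersion (0.061). Genes that varied more between mice, such as Tff2 and Krt19, are not covered by that recovery. Other alternatives were size factors, no filter, a non-robust fit, leaving out the 5% deepest cells, a rule on cells thinned to 5000 UMIs, a rule with no pit UMI, leaving out each mouse, and no mouse block.

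Named genes are list members or, between classes, up to 8 genes per direction (5 between clusters) with the largest mean ratio, at least 50 CPM and a log2 ratio of at least 1 in 4 of 4 mice. Over time they are the 5 smallest p per direction with at least 10 CPM and no overlap. Some genes that met these rules are not reported here. Hist1h1b was named because it passed in cluster 1, after its values were seen. B cell-like cells have no deposited type, at least 3 of 5 B cell genes and no UMI of Cd3e, Krt19 or Csf1r. Binomial intervals are 95% exact and cover counting error only.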

Additional observations from a re-analysis of the deposited data

Results flagged for a closer look

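The change over time differed between pit-negative and pit-positive MucinDuctal cells for 32 of 12960 genes by a test of the difference itself (edgeR interaction, adjusted p under 0.05). Among cluster 2 cells only, 2 of these 32 (Apoc2 and Pga5) passed, of 22 that were tested there. Several of these genes rest on few UMIs in the pit-positive cells of 2-week mouse 1, which had 21 such cells: Tuba1a had 1 UMI there and 214 in 2-week mouse 2, and Cd52 had 0. Ppy, a hormone gene of EEC cells, and Ms4a1 and Cd52, genes of immune cells, were among the 32. The part of other cells' RNA in these calls was not tested.

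Cells to which the authors gave no type hold the same markers. Of 7778 such cells, 1599 (20.6%) had a UMI of each of Muc6, Tff2 and Sox9, against 8 of 572 B cell-like cells (1.40%), which are shallower, with a median of 2906.5 to 3669.5 UMIs over the mice. All 4 markers were found in 634 (8.15%), whose median was 6519.5 UMIs and of which 124 had a UMI of EYFP. Per mouse these were 65, 124, 156 and 289 cells, or 3.76%, 7.39%, 7.47% and 12.7% of its untyped cells. They entered no comparison above.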

How the results depend on the processing

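Over time, 0 genes passed in the pit-negative cells with edgeR, 47 with DESeq2, 7 with no gene filter and, in a fit added after the data were seen, 4 in cluster 1 only. Leaving out 1 mouse gave 0 to 249 genes, with 249 without 2-week mouse 1 and 36 without 2-week mouse 2, where the lone mouse is assumed to vary like the other group. Interactions with pit-positive cells numbered 32, against 2 with DESeq2, 50 with no gene filter, 13 under the rule with no pit UMI and 0 with no mouse block, and 23 to 125 without 1 mouse (89 without 2-week mouse 1, 125 without 2-week mouse 2). Interactions with Acinar cells numbered 0, against 2 with DESeq2, 15 with no gene filter and 0 to 364 without 1 mouse (364 without 2-week mouse 1, 104 without 2-week mouse 2, 4 without 4-week mouse 2). The pit-negative share of MucinDuctal cells was 7.90 percentage points higher at 4 weeks and ranged from -1.30 to 17.1 without 1 mouse, turning to -1.30 without 2-week mouse 2. With the rule applied to thinned cells it was 2.81 points higher, and the share in 2-week mouse 2 went from 75.9% to 93.6%. With enzymes out of the library size, ratios to Acinar cells moved to 3.09 (neck) and 2.59 (duct), and from 6.22 to 5.13 (chief). Under the thinned rule, ratios to pit-positive cells moved to 0.0395 (duct) and turned to 0.0284 (chief), while the neck ratio of -0.34 ± 0.17, with 0 of 4 mice higher in pit-negative cells, came to -0.20 ± 0.49 with 2 of 4 higher. Phlda3 turned to 0.31 in cluster 2. Of 120 list ratios under the other settings, 116 kept their sign and moved by less than 1 SD over the mice. Of 130 values of named genes, 107 kept their direction and did not pass, and 22 more passed. Sizes still moved, as in cluster 2 for 1700066B19Rik (1.06 to 0.36) and Akr1c19 (1.14 to 0.62). The causes were not tested. No paired analysis was possible because the labels give the mice no replicate numbers that would pair the time points, while classes of 1 mouse were paired by the mouse. The number of mice, 2 per time, and the 21 pit-positive cells of 2-week mouse 1 limit these results.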

Other observations

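Genes of protein folding in the endoplasmic reticulum were measured in both clusters of the pit-negative cells. The median log2 ratio of cluster 2 over cluster 1 was 0.68 over the 15 of 18 folding and stress genes that reached 50 CPM, beside -0.15 over all genes, and 0 of 15 had a ratio of at least 1 in all 4 mice. Hspa5, the main chaperone there, was at 834, 962, 768 and 835 CPM in cluster 2 and 445, 597, 518 and 587 in cluster 1, and Sdf2l1, a cofactor of it, at 168, 219, 209 and 209 and 87.5, 71.1, 87.6 and 93.6 CPM. The clusters did not overlap in either gene, and how many of all genes did not overlap was not counted. Ddit3, a gene of the terminal stress response, overlapped, at 22.8, 36.9, 18.8 and 24.8 and 23.2, 24.7, 22.6 and 22.0 CPM. Ern2, a stress sensor of mucous cells, was at 118, 141, 115 and 125 CPM in cluster 2 and 0.16, 2.42, 0.268 and 1.01 in Acinar cells. Between the clusters Ern2 did not reach a log2 ratio of at least 1 in all 4 mice.

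Receptors and ligands of the EGF family were measured in the pit-negative cells as well. Erbb3, a receptor for neuregulins, was at 45.9, 56.3, 56.1 and 62.2 CPM, Erbb2, its partner, at 18.6, 32.3, 22.2 and 25.9 CPM, and Egfr at 11.1, 14.8, 12.0 and 11.7 CPM. Hbegf, a ligand of Egfr, was at 109, 182, 51.1 and 87.6 CPM in pit-negative and 3.55, 12.7, 1.76 and 2.61 in Acinar cells, with no overlap. Areg, another ligand, was at 10.9, 7.34, 2.58 and 4.26 CPM in cluster 1 and 0.171, 0, 0.298 and 0.519 in cluster 2, where it lay lower in each mouse. These are descriptions with no test.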
